A study of Mus musculus with 2 samples.

Results

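The cells described here are the single CD4 T cells with the most transcript of Stmn1 and Hmgb2 among T cells that recognise the 2W1S peptide in mice colonized with a fungus displaying it. In each of 2 captures, the mean of the deposited log2 values of Stmn1 and Hmgb2 was taken per cell, and the 1 in 3 cells with the highest mean formed the high class, so its members were chosen by these measured values. It held 59 of 178 cells, 27 of 82 in March and 32 of 96 in April, and the remaining 119 cells (55 and 64) formed the rest. All cells came from spleen and peripheral nodes of C57BL/6 animals that carried the label CA-2W1S colonization (Candida albicans engineered to express the 2W1S antigen), so both classes share genotype, colonization and tissue. They were sorted, captured on a Fluidigm C1 instrument and converted to cDNA with SMART-Seq v4, a full-length chemistry without molecular identifiers. No label gives the number or age of the mice in a pool, so the spread between captures may be technical or biological, and these cannot be told apart.

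Stathmin, encoded by Stmn1, binds tubulin dimers and destabilises microtubules. Hmgb2 encodes a chromatin protein that bends DNA, and both transcripts are abundant in dividing lymphocytes. A T cell that has met its antigen leaves rest, builds a pool of nucleotides, licenses and copies its DNA in S phase and then separates its chromosomes in mitosis. Cells that have divided before carry effector and memory genes such as Lgals1, Vim and the S100 genes, while resting cells keep trafficking genes such as Klf2 and S1pr1. Counting how many genes of each step a single cell holds therefore shows which cells of a score-based class carry a division programme.

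The 2 genes that chose the cells, Stmn1 (ENSMUSG00000028832, chr4:134468320-134473843, plus strand) and Hmgb2 (ENSMUSG00000054717, chr8:57511907-57515999, plus strand; mm10, GENCODE), are described here without a test. Values are log2(value + 1) of a TPM-like value, and "at 1" means a back-transformed value of 1 or more. Hmgb2 was at 1 in 56 of the 59 high cells, with medians of 7.64 in March high cells and 7.58 in April high cells, against 0.59 and 1.29 in the March and April rest. Stmn1 was at 1 in 27 of the 59 high cells and stood at exactly 0 in 31 of them, 18 in March and 13 in April. Both genes were at 1 together in 24 high cells, 8 in March and 16 in April, and in 7 cells of the rest. The label therefore fits only a part of the class: 32 of the 59 cells held Hmgb2 at 1 without Stmn1 at 1. Across cells, Stmn1 and Hmgb2 had a Spearman rho of 0.06 in March (n = 82) and 0.24 in April (n = 96), both values coming from the same library of each cell. The lowest score inside the class was 2.64 and the highest outside it 2.33 in March, and these were 2.87 on both sides in April. The class drew on every run named in the columns, with 7 of 25 cells from Mar1 (28.0%, exact Clopper-Pearson 95% interval 12.1 to 49.4%), 20 of 57 from Mar17 (35.1%, 22.9 to 48.9%), 19 of 48 from Apr13 (39.6%, 25.8 to 54.7%) and 13 of 48 from Apr21 (27.1%, 15.3 to 41.8%).

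The sorted cell type was checked on its defining transcripts. Cd3d and Cd3g, chains of the T cell receptor complex, were at 1 in every high cell and every cell of the rest in both captures. Cd4 was at 1 in 77.8% of March and 75.0% of April high cells, against 69.1% and 67.2% of the rest. Cd8a, which marks the other main T cell lineage and was picked out after its values had been seen, was at 1 in 4 of 27 March and 5 of 32 April high cells, against 1 of 55 and 2 of 64 cells of the rest. Its median was 0 in every group. Cd8b1, the only member of the CD8 list that passed the filter on low values, averaged 1.21 and 0.39 in March and April high cells, against 0.81 and 0.95 in the rest. The summed CD8 list reached 299.99 and 29.8 in high cells, against 995 and 1654 in the rest. Within each high class, the highest Cd8b1 value (8.23 in March, 3.56 in April) was in a cell with many cell cycle genes, a group described below. The rest reached 9.96 in March and 10.69 in April. No member of the plasma cell list was in the table, and 8 of 16 B cell markers were. Their summed linear value had medians of 13.7 in March high cells (range 3.24 to 50427) and 16.6 in April high cells (1.77 to 2388), against 8.51 (0.283 to 6797) and 11.6 (1.49 to 4869) in the rest. Ebf1, a B cell transcription factor of that list, was at 1 in 27 of 27 March high cells (100%) and 84.4% of April high cells. In the rest it was at 1 in 90.9% in March and 84.4% in April. Its median log2 values were low throughout, 2.06 and 1.63 in March and April high cells, against 1.73 and 1.68 in the rest. Of 16 myeloid markers 5 were in the table, with median sums of 106 and 63.4 in March and April high cells, against 31.9 and 109 in the rest. The highest B cell marker sum belonged to 1 March high cell, and the part of other cell types in the differences below was not tested.

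Read depth per cell cannot be recovered from these values, and the number of genes detected (value above 0) stands in for it. High cells held a median of 5518 genes in March (3837 to 6990) and 5112 in April (4005 to 6772), against 5217 (2927 to 6135) and 4906 (4167 to 5846) in the rest. The difference of medians was 301 genes in March and 206 in April, 253.5 on average over 2 captures, and the ranges overlapped. Spearman rho between score and genes detected was 0.43 in March and 0.21 in April. The main comparison of the classes below carries this gap. When each high cell was paired with the cell of the rest nearest in genes detected, the class medians differed by 2.00 genes. High cells above the highest count of the rest (6135 in March, 5846 in April) could not be matched fully. They include the 4 March cells with the most cell cycle genes, described below, which held 6148 or more. In 1 high and 2 other March cells, mitochondrial genes took over 50% of the linear signal.

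**Figure D1:**
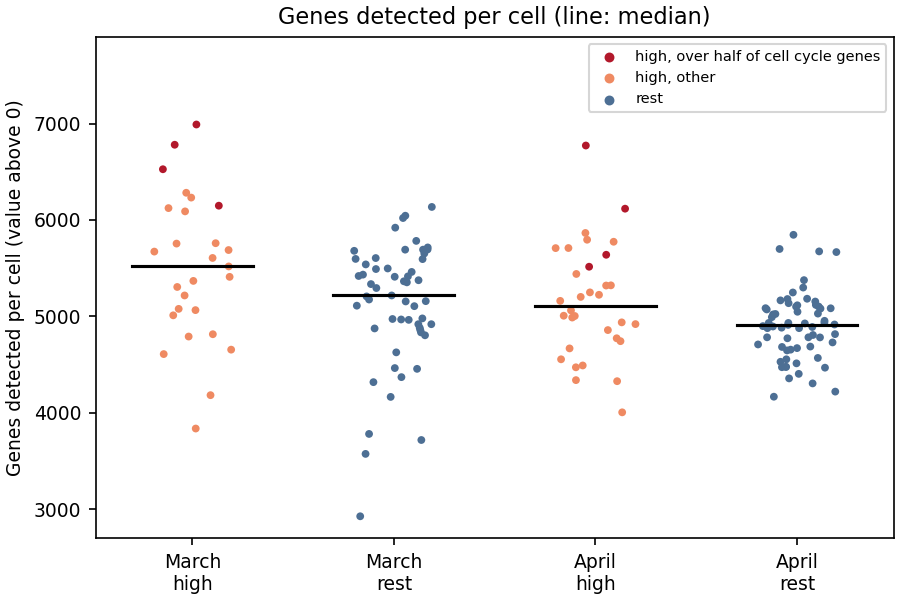
Genes detected per cell (y axis, number of genes above 0) for high cells and the rest of each capture; each point is 1 cell and the line is the median. The medians of 5518 and 5112 in high cells lie above the 5217 and 4906 of the rest, and the cells with the most cell cycle genes, in dark red, lie between 5515 and 6990.

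A small group of cells stood apart in the number of cell cycle genes they held. Of 127 genes listed for DNA replication, nucleotide synthesis, cell cycle regulation and mitosis, 119 were in the table. 8 cells, found after the values had been seen, held between 63 and 101 of these 119 genes at 1, while no other cell held more than 44. All 8 were in the high class, 4 from March, all in run Mar17, and 4 from April, 2 in each run. Each had both Stmn1 (6.08 to 11.98) and Hmgb2 (7.64 to 10.87). The other 51 high cells held a median of 26 cell cycle genes (17 to 44), against 24 (12 to 42) in the rest, so these 2 groups overlapped nearly throughout. Of these other high cells, 5 April cells with scores of 6.59 to 10.46 held 34 to 43, and a March cell with a score of 6.64 held 25. These cells are part of the 51 and so help to set the range of 17 to 44. The 5 April counts lie above the median of 26 of that group, and the March count lies below it.

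**Figure D2:**
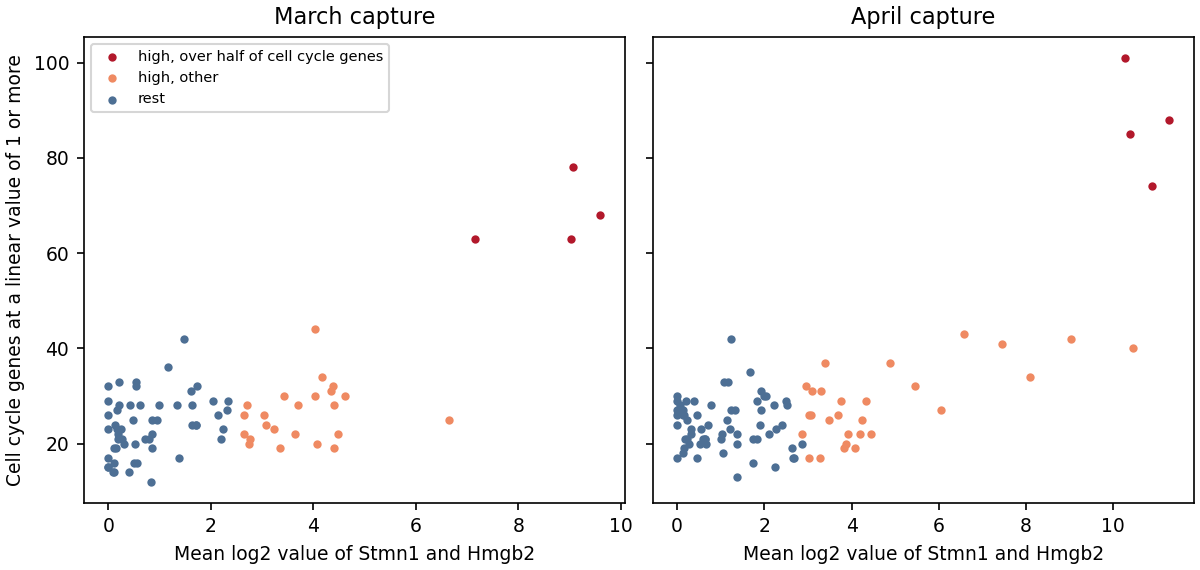
Number of the 119 cell cycle genes at a linear value of 1 or more (y axis) against the mean log2 value of Stmn1 and Hmgb2 (x axis), 1 point per cell. The 8 dark red cells hold 63 to 101 genes and stand apart, while the other high cells (17 to 44) and the rest (12 to 42) share a range.

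The 8 cells differed between captures in how many mitosis genes they held. The March cells held 30, 31, 22 and 23 of the 35 DNA replication genes in the table and 20, 14, 20 and 12 of the 43 mitosis genes. The April cells held 28, 24, 26 and 24 replication genes and 40, 41, 31 and 27 mitosis genes. Replication counts overlapped between the captures, while every April cell held more mitosis genes than every March cell. In the 51 other high cells the medians were 7 replication and 9 mitosis genes, against 7 and 8 in the rest. Mitosis counts reached 21 in the other high cells and 20 in the rest, and 13 and 18 in March alone. The mitosis counts of the 4 March cells thus overlapped those of other cells. Replication counts reached 21 and 12 in these 2 groups over both captures, below those of all 8 cells. These are counts in 8 cells of 2 captures and carry no test; the month of capture and the cells that happened to be caught cannot be told apart.

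**Figure D3:**
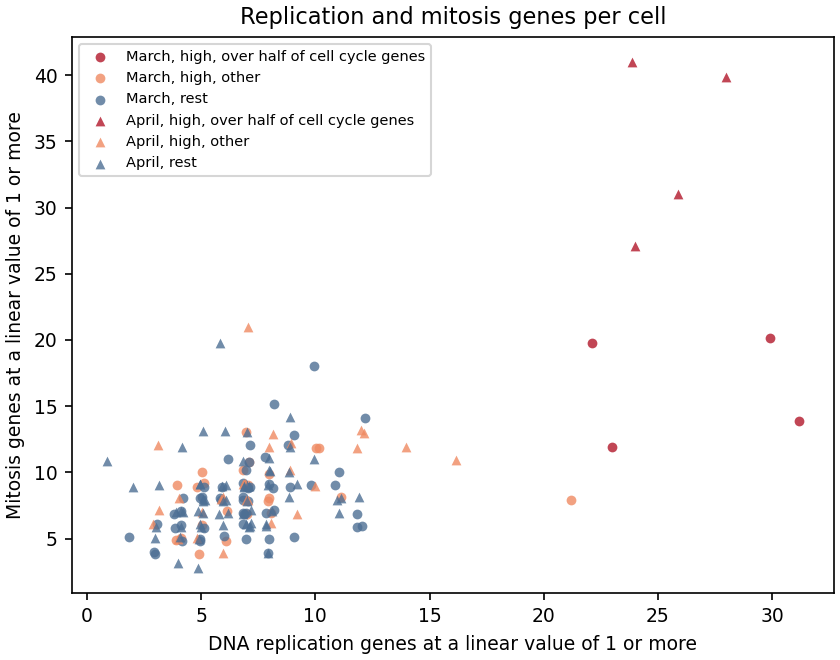
Mitosis genes (y axis, of 43) against DNA replication genes (x axis, of 35) at a linear value of 1 or more in each cell, points offset slightly to show ties. The 4 March cells lie at 12 to 20 mitosis genes and the 4 April cells at 27 to 41, both with 22 to 31 replication genes.

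Across all genes, high cells were compared with the rest on the mean log2 value per capture and class, with the capture as a block. Of 10793 genes tested besides Stmn1 and Hmgb2, 0 (0%) were higher and 0 (0%) lower at an adjusted p under 0.05 with limma and Benjamini-Hochberg adjustment, which had 1 residual degree of freedom. At an unadjusted p under 0.05, 974 genes (9.02%) were higher and 126 (1.17%) lower. The smallest adjusted p in limma was 0.0988, for Sept2. Means in high cells were above the rest in both captures for 4114 genes (38.1%) and below it in both for 1859 (17.2%), and the median difference over all genes was 0.11. The split moved with the processing: 209 genes were higher and 348 lower when linear values were averaged, which moved the median of all genes to -0.14, and 542 and 388 after quantile normalization. Every difference below is a difference of mean log2(value + 1) with zeros included, high minus rest, with limma's moderated SE, which draws on the variance shared across genes (median total of 14.6 degrees of freedom); none of these genes passed the adjusted threshold.

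Of the lists examined, DNA replication had the highest share of genes above the rest in both captures. Of 32 tested, 29 (90.6%, against 38.1% of all genes tested) had higher means in high cells in both captures and 1 had lower means in both. At an unadjusted p under 0.05, 22 were higher and 0 lower, against 9.02% and 1.17% of all genes tested, and the median difference was 0.75. Lig1, the ligase that seals newly copied strands, averaged 2.61 in March and 2.89 in April high cells, against 0.46 and 1.11 in the rest (difference 1.97, SE 0.37, limma adjusted p = 0.114). Uhrf1, which guides DNA methylation at the replication fork, averaged 1.76 and 1.64 in high cells, against 0.18 and 0.16 in the rest (1.54, SE 0.30, limma adjusted p = 0.114). Mcm5, a subunit of the replicative helicase, averaged 2.08 and 2.13 in high cells and 0.66 and 0.80 in the rest (1.38, SE 0.34, limma adjusted p = 0.257). It was at 1 in 9 of 27 March high cells (33.3%, exact 95% interval 16.5 to 54.0%) and 13 of 32 April high cells (40.6%, 23.7 to 59.4%), against 8 of 55 (14.5%, 6.50 to 26.7%) and 12 of 64 (18.8%, 10.1 to 30.5%) in the rest. The classes overlapped for all 3 genes.

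The 8 cells hold much of this difference. They were found by their counts of cell cycle genes, these among them, so this follows in part from that choice. The same applies to the nucleotide, regulator and mitosis lists. Mcm5 averaged 9.06 in the March and 7.72 in the April cells of that group, against 0.87 and 1.33 in the other high cells and 0.66 and 0.80 in the rest. Without the 8 cells, the median over the replication list was 0.21 and the difference of Uhrf1 was 0.56. Mcm3, another helicase subunit, then stood below the rest at -0.31, against 0.80 with all high cells. The sliding clamp Pcna differed by 0.97 with them and 0.06 without them. Paired on genes detected, the list median was 0.66, and it was 1.46 when linear values were averaged.

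Nucleotide supply genes followed the same order. Means were higher in both captures for 16 of 19 genes (84.2%) and lower in both for 0, against 38.1% and 17.2% of all genes. The median difference was 0.76 (0.20 without the 8 cells). Paics, an enzyme of purine synthesis, averaged 3.85 and 4.19 in March and April high cells, against 2.11 and 2.21 in the rest (1.86, SE 0.43, limma adjusted p = 0.191), and still differed by 1.38 without the 8 cells. Rrm2, the regulated subunit of ribonucleotide reductase, averaged 1.61 and 1.74 in high cells, against 0.35 and 0.21 in the rest (1.39, SE 0.30, limma adjusted p = 0.185). In the other high cells Rrm2 averaged 0.51 and 0.48, while the 8 cells averaged 7.93 and 10.53, and without them the difference was 0.21. Tyms and Tk1, which make thymidine nucleotides, differed by 0.91 and 0.76.

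Cell cycle regulators and mitosis genes were less even between captures. Among 20 regulators, 13 (65%) had higher means in both captures and 1 lower, against 38.1% and 17.2% of all genes. Their median was 0.49. Ccnb2, a mitotic cyclin, was at 1 in 3 of 27 March and 5 of 32 April high cells, against 0 of 55 and 1 of 64 in the rest; the 0 allows a share of up to 6.49% (exact, counting error only). Its mean difference was 0.82 (SE 0.20, limma adjusted p = 0.243). Cdk6, the G1 kinase, averaged 4.25 and 5.41 in high cells and 2.82 and 4.26 in the rest (1.29, SE 0.47, limma adjusted p = 0.359). Cks1b, a partner of cyclin-dependent kinases, differed by 0.82, and averaged 2.75 in March and 9.10 in April in the 8 cells. Cdk1, the kinase of mitotic entry, stood at 0.15 in March and 1.29 in April high cells, against 0.20 and 0.54 in the rest.

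Of 34 mitosis genes tested, 24 (70.6%) had higher means in both captures and 0 lower, against 38.1% and 17.2% of all genes. The list median, however, was 0.17 in March and 0.74 in April. Of 43 mitosis genes in the table, 34 passed the filter of 10% of cells, which counted high cells and the rest together, as for every list. A rarely detected gene could thus pass through the high cells, which favours higher means. Kif23, detected in 10.1% of cells, was at 0 throughout the March rest. Kif23, a kinesin of the dividing cell's midbody, was at 1 in 1 of 27 March and 4 of 32 April high cells, against 0 of 55 and 0 of 64 in the rest (difference 0.54, SE 0.16, limma adjusted p = 0.308). Tacc3, which stabilises the spindle, was at 1 in 1 of 27 March and 7 of 32 April high cells, against 2 of 55 and 0 of 64 cells of the rest, and averaged 0.00 in March and 8.66 in April in the 8 cells. Mki67, the common proliferation marker, averaged 0.35 in the 4 March and 6.15 in the 4 April cells, and over the classes it was 0.09 and 0.79 in high cells and 0.12 and 0.32 in the rest. Top2a, which untangles DNA, and Birc5, a subunit of the chromosomal passenger complex, differed by 0.99 and 1.09, with limma adjusted p values of 0.391 and 0.352. Without the 8 cells the median of the mitosis list was 0.04, below the 0.06 of all genes.

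Promoters of these lists were read from RefSeq (GRCm38.p6, 250 bases before to 50 after the start), where 26 of 32 replication and 31 of 34 mitosis genes had an entry. An E2F-type site, TTTCCCGC or TTTGGCGC on either strand, was found in 9 of 26 replication promoters (34.6%), 2 of 31 mitosis promoters (6.45%), 3.27% of promoters of all genes tested and 1.62% of all promoters. A CHR-type element, TTTGAA or TTCGAA, was found in 24 of 31 mitosis promoters (77.4%), 15.4% of replication promoters, 14.3% of genes tested and 19.4% of all promoters. CCAAT was found in 74.2% of mitosis and 69.2% of replication promoters, against 38.7% of genes tested and 37.8% of all promoters. Matches were counted whether or not they overlapped, and a match is a description of letters, not of a factor bound there. E2F sites are known from genes of S phase and the CHR from genes of mitosis. The 4 promoters printed here, picked after the values had been seen, are of Hmgb2 (chr8:57511593-57511892, plus strand), the helicase gene Mcm5 (chr8:75109259-75109558, plus strand), the mitotic cyclin gene Ccnb2 (chr9:70421505-70421804, minus strand) and the kinesin gene Kif23 (chr9:61946750-61947049, minus strand). They show the site types side by side, 5′ to 3′ on the gene's strand, with capitals marking every match to the 3 motifs on either strand.
Hmgb2: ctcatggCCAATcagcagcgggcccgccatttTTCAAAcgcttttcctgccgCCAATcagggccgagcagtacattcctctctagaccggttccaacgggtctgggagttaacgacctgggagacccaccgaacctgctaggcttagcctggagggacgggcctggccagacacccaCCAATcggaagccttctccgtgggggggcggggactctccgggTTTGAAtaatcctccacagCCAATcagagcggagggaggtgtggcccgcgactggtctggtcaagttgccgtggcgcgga
Mcm5: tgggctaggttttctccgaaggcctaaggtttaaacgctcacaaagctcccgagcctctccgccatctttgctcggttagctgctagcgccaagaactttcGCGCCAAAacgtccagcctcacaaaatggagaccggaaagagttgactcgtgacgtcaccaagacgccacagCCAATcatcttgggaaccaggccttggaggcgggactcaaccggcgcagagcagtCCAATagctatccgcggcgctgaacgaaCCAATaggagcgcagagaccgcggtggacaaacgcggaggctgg
Ccnb2: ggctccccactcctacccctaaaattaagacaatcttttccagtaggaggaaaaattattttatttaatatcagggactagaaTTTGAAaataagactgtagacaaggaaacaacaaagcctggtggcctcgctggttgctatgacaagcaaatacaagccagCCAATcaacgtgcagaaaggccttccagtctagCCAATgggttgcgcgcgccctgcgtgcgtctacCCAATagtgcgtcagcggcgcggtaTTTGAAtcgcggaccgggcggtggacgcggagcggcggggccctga
Kif23: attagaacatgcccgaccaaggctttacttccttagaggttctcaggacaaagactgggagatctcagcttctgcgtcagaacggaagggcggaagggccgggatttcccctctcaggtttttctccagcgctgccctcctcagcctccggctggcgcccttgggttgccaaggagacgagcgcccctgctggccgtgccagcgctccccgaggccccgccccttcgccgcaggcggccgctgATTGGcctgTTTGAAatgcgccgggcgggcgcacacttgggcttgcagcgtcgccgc
In these windows, Hmgb2, 1 of the genes that chose the cells, held CCAAT and CHR-type letters like Ccnb2 and Kif23, and no E2F-type letters. Mcm5 held an E2F-type match and CCAAT, and no CHR-type letters.

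Histone variants, histone chaperones and other HMG proteins also had mostly higher means, and H2afz kept most of its difference without the 8 cells. H2afz (ENSMUSG00000037894, chr3:137864487-137866922, plus strand, mm10), which encodes a variant of histone H2A, had a lowest, median and highest value of 0, 9.87 and 12.19 in March high cells and 1.36, 10.10 and 12.60 in April high cells. In the rest these were 0, 5.07 and 11.49 in March and 0, 8.24 and 12.31 in April, so the medians were apart and the ranges overlapped. Means were 8.42 and 8.39 in high cells and 5.63 and 6.33 in the rest (2.42, SE 0.45, limma adjusted p = 0.114), and the difference was 1.90 without the 8 cells and 2.27 when cells were paired on genes detected. H2afv, a near relative of H2afz, differed by 1.64 (SE 0.43, limma adjusted p = 0.259), and Asf1b, a chaperone that delivers histones behind the fork, by 1.04 (SE 0.30, limma adjusted p = 0.285). Of 18 histone variants and chaperones, 15 (83.3%) were above the rest in both captures and 0 below, against 38.1% and 17.2% of all genes. Their median was 0.60, and 0.06 without the 8 cells. Of the replication histones 6 were tested, with 3 (50%) above in both captures and 1 below. Their median was 0.24, and -0.28 with linear values averaged. Among 7 further HMG protein genes 6 (85.7%) were above in both captures. Hmgb3 differed by 1.20, while Hmgb1, at 1 in nearly every cell, differed by 0.54 and Hmgn2 by 0.57. Hmgn2 without the 8 cells was at -0.45. H2afz, Hmgb1 and Hmgn2 have near-identical processed copies, and how reads shared with these were counted is not given in the sources used here.

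Partners of stathmin were examined through tubulin and its folding and binding proteins. Of 20 genes, 16 (80%) were above the rest in both captures and 0 below, against 38.1% and 17.2% of all genes. Their median was 0.70 (0.33 without the 8 cells, 0.20 with linear values averaged). Mapre1, a protein of growing microtubule ends, averaged 3.71 and 3.22 in March and April high cells, against 1.15 and 2.40 in the rest (1.69, SE 0.47, limma adjusted p = 0.265). Tuba1b, an alpha tubulin, differed by 1.13 and was at 1 in 81.5% and 81.2% of high cells, against 65.5% and 64.1% of the rest. Tubb5, the main beta tubulin, was at 1 in every cell, with 9.45 and 9.16 in high cells and 8.83 and 9.12 in the rest; its difference of 0.33 turned to -0.01 when linear values were averaged. Actin cytoskeleton genes had a median of 0.46 over 27 genes, 21 (77.8%) above in both captures and 0 below.

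Effector memory and S100 genes had higher means with and without the 8 cells. Of 24 genes, 17 (70.8%) were above the rest in both captures and 0 below, against 38.1% and 17.2% of all genes tested, and 16 were higher at an unadjusted p under 0.05, against 9.02% of all genes. The median difference was 1.10 with all high cells, 0.77 without the 8 cells, 1.07 when cells were paired on genes detected and 0.51 with linear values averaged. Lgals1 (ENSMUSG00000068220, chr15:78926725-78930465, plus strand), which encodes galectin-1, a lectin of activated T cells and the third marker given for these cells, had a lowest, median and highest value of 0, 3.15 and 10.58 in March high cells and 1.41, 8.12 and 12.34 in April high cells. In the rest the medians were 2.67 in March and 3.40 in April, with values of 0 in both and a March maximum of 11.40. The medians were thus close in March and far apart in April, with overlapping ranges in both. Its means were 4.58 and 6.68 in high cells, against 3.67 and 4.76 in the rest (1.41, SE 0.49, limma adjusted p = 0.352), and the difference was 0.79 without the 8 cells.

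Vim, the intermediate filament vimentin, averaged 5.40 and 5.43 in March and April high cells, against 3.27 and 3.67 in the rest (1.94, SE 0.47, limma adjusted p = 0.236). The 8 cells averaged 9.42 and 9.63 and the other high cells 4.70 and 4.82, still above the rest in each capture. S100a10, which pairs with annexin A2 at the membrane, had medians of 6.91 and 8.83 in high cells and 4.34 and 5.58 in the rest. It differed by 1.87 (SE 0.47, limma adjusted p = 0.259) and by 1.60 without the 8 cells, but by -0.54 when Stmn1 alone chose the cells. Anxa2, its partner, was at 1 in 5 of 27 and 16 of 32 high cells, against 2 of 55 and 18 of 64 cells of the rest (1.47, SE 0.35, limma adjusted p = 0.204). Crip1, a small LIM protein, and Anxa6, a calcium-dependent membrane binder, differed by 1.71 and 1.70. Capg, an actin capping protein, was uneven, with 2.99 and 5.12 in high cells and 2.79 and 2.30 in the rest.

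**Figure D4:**
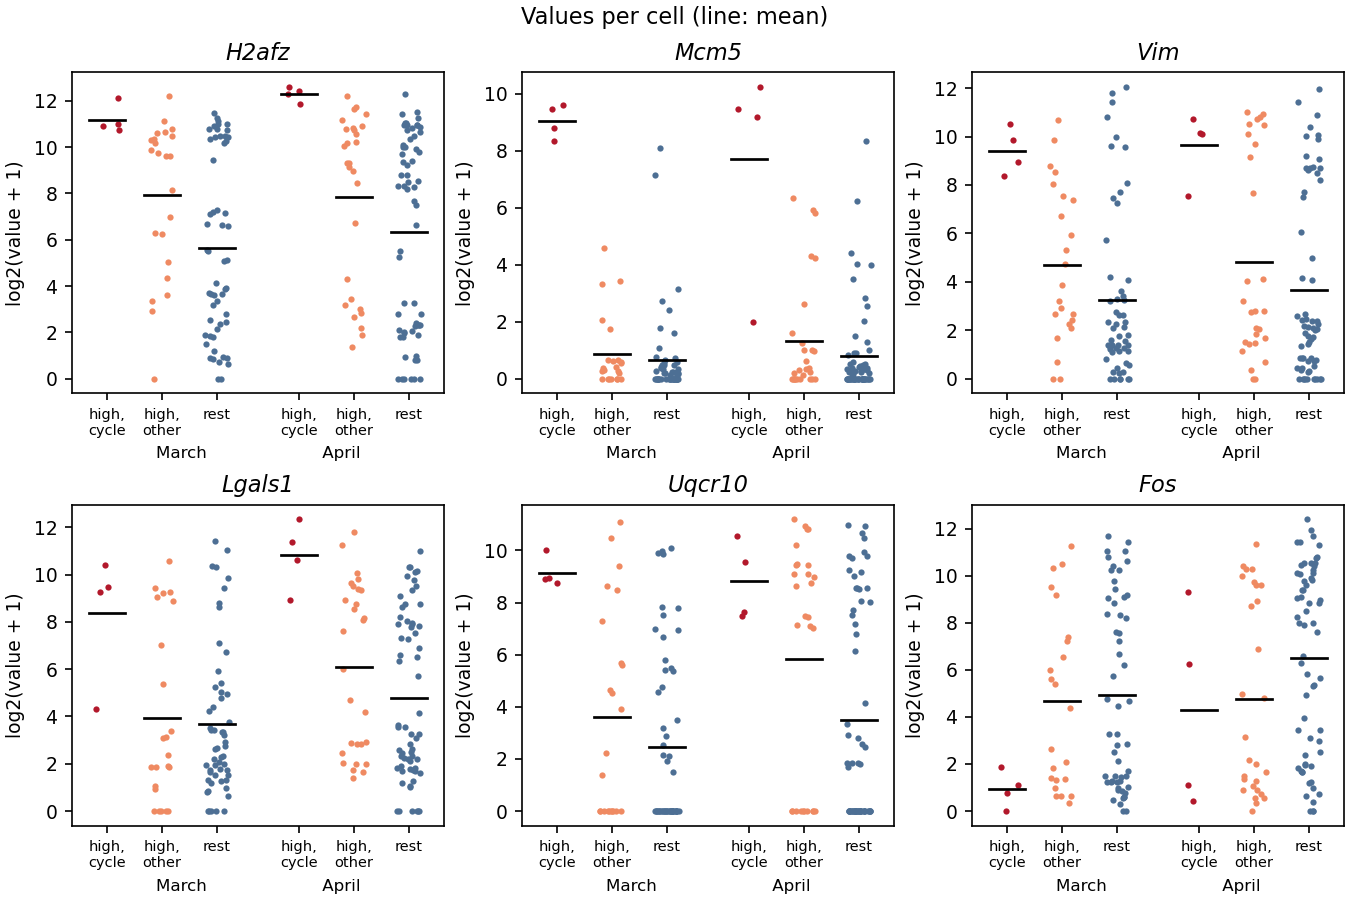
Values of 6 genes in every cell, log2(value + 1) on the y axis, for the 8 cells with the most cell cycle genes (high, cycle), the other high cells (high, other) and the rest of each capture; the line is the mean. Mcm5, 1 of the genes that served to find the 8 cells, is between 8.36 and 10.24 in all of them but 1 April cell (1.98). It averages 0.87 and 1.33 in the other high cells of March and April, and 0.66 and 0.80 in the rest. For Mcm5, H2afz, Vim and Uqcr10, means of the other high cells lie between those of the 8 cells and the rest, and single values overlap.

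Genes of energy and protein supply also had higher means, again in part outside the 8 cells. Of 53 oxidative phosphorylation genes, 47 (88.7%) were above the rest in both captures and 0 below, against 38.1% and 17.2% of all genes tested, and 27 were higher at an unadjusted p under 0.05, against 9.02%. Their median was 1.02 (0.59 without the 8 cells, 0.75 paired on genes detected, 0.21 with linear values averaged). Uqcr10, a small subunit of complex III, had medians of 4.53 and 7.56 in March and April high cells, against 0 and 1.74 in the rest. Its means were 4.44 and 6.20 in high cells, against 2.45 and 3.48 in the rest (2.36, SE 0.47, limma adjusted p = 0.137). Ndufa4, a subunit of cytochrome c oxidase, had medians of 7.23 and 8.03 in high cells and 2.35 and 1.87 in the rest (2.15, SE 0.48, limma adjusted p = 0.185). It was nonetheless at 1 in 74.1% and 78.1% of high cells, against 74.5% and 76.6% of the rest, so its means lay apart while the shares of cells at 1 were close.

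Over 28 proteasome genes the median was 0.90, with 20 (71.4%) above in both captures and 2 below, against 38.1% and 17.2% of all genes. Splicing genes had a median of 0.83 over 34, 27 (79.4%) above and 1 below. Without the 8 cells these medians were 0.45 and 0.39, and with linear values averaged 0.014 and 0.29. Psmd4, a ubiquitin receptor of the proteasome, differed by 2.01 (SE 0.44, limma adjusted p = 0.185) and by 1.93 without the 8 cells. Psmd4 averaged 4.99 and 4.29 in the 8 cells, against 3.92 and 4.31 in the other high cells. Snrpg and Snrpd1, core proteins of the spliceosome, differed by 1.78 and 1.79. Translation factors had a median of 0.62 over 24 genes (0.11 with linear values averaged), 17 (70.8%) above and 0 below. The list does not hold every translation gene. Eif4a2, which is not in it, differed by -1.08 in March and -2.01 in April, and Eif2s3x, also not in it, by 1.92 and 2.02. Eif3e, a subunit of initiation factor 3, averaged 6.58 and 6.80 in high cells and 4.24 and 4.31 in the rest. Its difference was 2.42 (SE 0.47, limma adjusted p = 0.118), and 2.29 without the 8 cells. Cytosolic ribosomal protein genes had a median of 0.40 over 39, which was 0.00 with linear values averaged. Glycolysis genes had a median of 0.45 over 18, 12 (66.7%) above and 2 below, and -0.12 with linear values averaged. Eno1, the enzyme enolase, averaged 8.45 and 7.55 in high cells, against 6.41 and 6.12 in the rest. It differed by 1.73 (SE 0.45, limma adjusted p = 0.259).

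**Figure D5:**
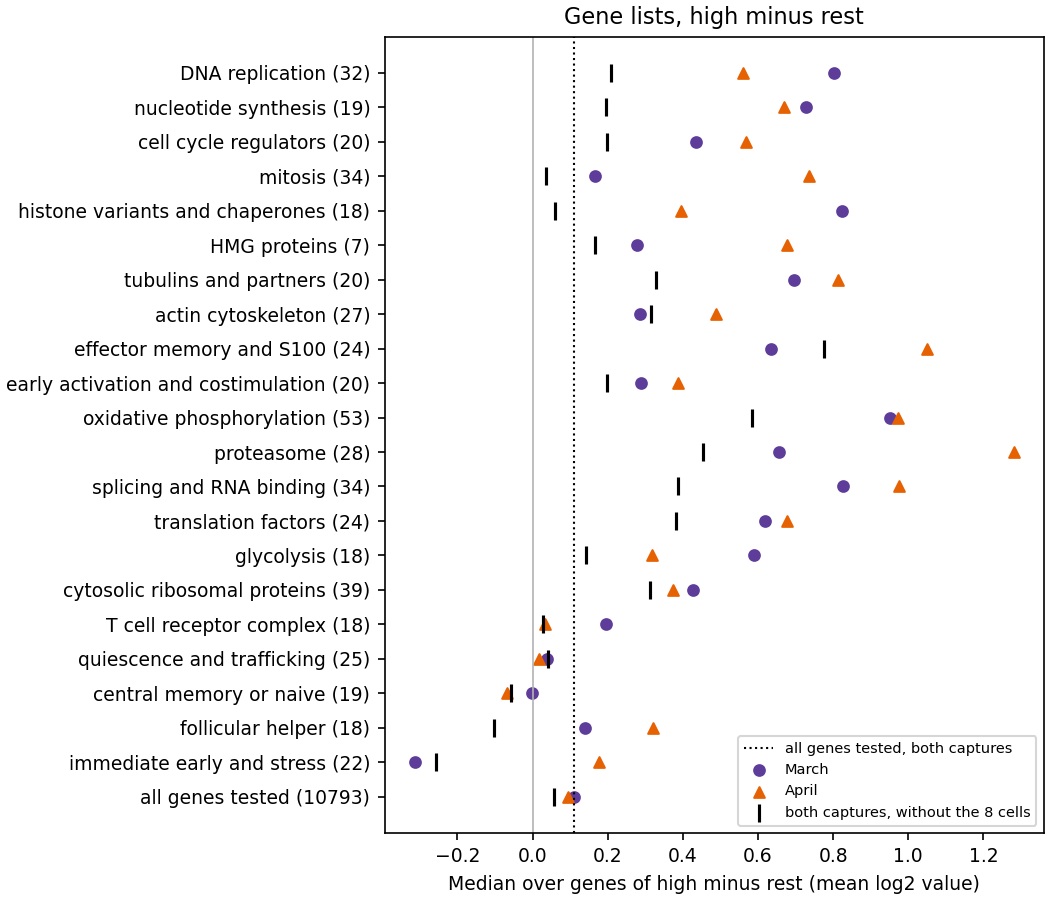
Median over each list's genes of the high minus rest difference in mean log2 value (x axis), with the number of genes tested in brackets; circles are March, triangles April and bars both captures without the 8 cells, and the dotted line is the 0.11 of all genes. Replication and mitosis medians are 0.21 and 0.04 without the 8 cells, which were found by genes of these lists. Effector memory and oxidative phosphorylation, not used to find them, go from 1.10 and 1.02 to 0.77 and 0.59.

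Besides H2afz and Lig1, the named genes with the smallest p among those higher in high cells were in none of the lists. Sept2 (ENSMUSG00000026276, chr1:93478964-93510260, plus strand), a septin that forms filaments at the cell cortex and in cytokinesis, had medians of 9.82 and 9.54 in March and April high cells, against 1.83 and 7.05 in the rest. Its means were 7.80 and 8.30 in high cells, against 4.30 and 5.85 in the rest (2.97, SE 0.48, limma adjusted p = 0.0988), with a difference of 2.74 without the 8 cells and 2.68 paired on genes detected. Cd48 (chr1:171682009-171705258, plus strand), an adhesion and costimulatory receptor of the SLAM family, averaged 6.24 and 6.85 in high cells and 4.15 and 3.77 in the rest (2.58, SE 0.49, limma adjusted p = 0.114). Dok2, an adaptor that dampens T cell receptor signals, differed by 2.22, and Spcs3, a subunit of signal peptidase, by 2.51. Eif2s3x, a subunit of initiation factor 2, was at 1 in 37.0% and 53.1% of high cells, against 7.27% and 23.4% of the rest. Canx, the chaperone calnexin and a member of the MHC class I presentation list, differed by 2.27 (SE 0.48, limma adjusted p = 0.157).

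The genes with the smallest p among those lower in high cells included a receptor chain and a cytokine. Il6st, the shared receptor chain of interleukin-6 type cytokines, was at 1 in 7.41% and 9.38% of March and April high cells, against 25.5% and 26.6% of the rest (-1.10, SE 0.32, limma adjusted p = 0.280). Tnf averaged 0.20 and 0.27 in high cells and 0.90 and 1.18 in the rest (-0.81, SE 0.23, limma adjusted p = 0.283). Trav13-2, a variable segment of the receptor alpha chain, was at 1 in 33.3% and 40.6% of high cells, against 45.5% and 68.8% of the rest (-1.61, SE 0.46, limma adjusted p = 0.280). Eif4a2, an RNA helicase of translation, differed by -1.55 (SE 0.49, limma adjusted p = 0.326), and the sign of Eif4a2 and Tnf turned when Stmn1 alone chose the cells (0.23 and 0.05).

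Immediate early and stress genes, which respond within minutes to stimulation or tissue handling, were split: of 22, 8 (36.4%) were above the rest in both captures and 7 below, against 38.1% and 17.2% of all genes tested. At an unadjusted p under 0.05, 1 was higher and 5 were lower, against 9.02% and 1.17% of all genes. The list median was -0.31 in March and 0.18 in April. Fos had medians of 2.10 and 2.66 in high cells and 3.29 and 7.95 in the rest, with means of 4.11 and 4.71 in high cells, against 4.92 and 6.49 in the rest (-1.29, SE 0.49, limma adjusted p = 0.389). Its 8 values in the cells with the most cell cycle genes ranged from 0 to 9.33, so low Fos was not shared by all of them. Jun and Fosb, which pair with or resemble Fos, differed by -0.93 and -0.76.

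Genes of resting and recirculating cells lay on both sides, with shares above the rest smaller than that of all genes. The quiescence and trafficking list had a median of 0.11 over 25 genes, 7 (28%) above in both captures and 4 below. Of all genes tested, 38.1% were above and 17.2% below. In limma, 0 genes of the list were at an unadjusted p under 0.05 in either direction. The list median was -0.21 with linear values averaged. Klf2, a transcription factor of trafficking and rest, averaged 2.26 and 1.68 in high cells and 1.72 and 1.39 in the rest (0.42, limma 95% interval -0.36 to 1.20, and -0.39 when Stmn1 alone chose the cells). S1pr1, its target and the receptor for egress, averaged 1.71 and 2.00 in high cells, against 2.61 and 2.43 in the rest (-0.67, limma 95% interval -1.51 to 0.17, and 0.010 when Stmn1 alone chose the cells). In the 8 cells Klf2 averaged 0.16 in March and 1.42 in April. The central memory or naive list had a median of -0.08 over 19 genes, 2 (10.5%) above and 6 below. Ccr7, the lymph node homing receptor, differed by 0.51, or -0.64 with linear values averaged.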

How the data were processed

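Cells were grouped and compared as described above. The deposited table holds log2 values for 12432 genes in 178 cells, and the submitters' processing notes name mm10 as the build; which aligner and counter were run is not given in the sources used here. Back-transformed sums of 892206 to 979888 per cell led to reading the deposited values as log2(TPM-like value + 1), a reading from the values. Every gene's 4th-highest value was 2.00 or more, so a filter before deposit is apparent. Of the Ensembl IDs, 12163 matched a symbol and 269 did not. No doublet caller was run, 0 pairs of cells were identical, and 0 columns were left unmapped.

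Mean log2 values per capture and class (4 pseudobulk libraries) were fitted with limma 3.58.1 in R 4.3.3, with a mean-variance trend, capture as block, two-sided Benjamini-Hochberg adjustment at 0.05, over genes above 0 in at least 10% of cells. Cells were never replicates, and intervals on shares (exact Clopper-Pearson, 95%) cover counting error only. Named genes were the 8 smallest p values at most in each direction, up to 5 per list and a set of fixed genes; members, genes and lists were chosen with earlier results of these data known. Capture numbers are months and classes share the same library preparation within each, so the block pairs classes of 1 capture. Alternatives covered the log scale, filters, normalization, blocks, runs, matching on genes detected and other ways to choose the cells. Other steps used Python 3.11.15, pandas 2.3.3 and SciPy 1.17.1.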

Additional observations from a re-analysis of the deposited data

How the results depend on the processing

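The difference in genes detected, 253.5, was 301 in March and 206 in April alone, 178 with Hmgb2 alone, 14.25 with the score adjusted for genes detected, 2.00 with cells paired on it, 125.5 without the 8 cells and 785 for the 24 high cells with both genes at 1; these last 2 alternatives were chosen after seeing the data. Genes higher at an adjusted p under 0.05 numbered 1 without a filter, 1 at the filter of 25% of cells, 8 after quantile normalization, 6 with the adjusted score, 69 for highest against lowest ranks (1 lower), 3 without the 8 cells (Sept2, ENSMUSG00000066002, which has no symbol in the tables used, and Gm17420, which is outside the naming rule) and 197 for the 24 cells, against 0. Unadjusted, the 974 higher and 126 lower genes were 209 and 348 with linear values averaged, 542 and 388 after quantile normalization, 561 and 223 without the 8 cells, 593 higher with the 4 runs as replicate block and 210 lower with the adjusted score. Without the replicate block 0 genes passed, and 665 were higher and 77 lower unadjusted.

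Of 69 genes followed through the 19 alternatives, 58 kept their sign wherever a value could be had. The sign turned with linear values averaged for Ccr7 (-0.64), Mki67 (-0.13) and Tubb5 (-0.013), without the 8 cells for Cdk1 (-0.055), Hmgn2 (-0.45), Mcm3 (-0.31) and Mki67 (-0.18), in March alone for Cdk1 (-0.045, against 0.75 in April alone) and Mki67 (-0.028, against 0.48), and with Stmn1 alone for Eif4a2 (0.23), Klf2 (-0.39), S100a10 (-0.54), S1pr1 (0.010) and Tnf (0.053). The cause was not tested. With 1 residual degree of freedom, no captures beyond 2 and no read depth, small differences were not detectable, and either capture alone gave values with no test.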

Other observations

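Helper subset and activation genes lay on both sides of the rest. Of 20 early activation and costimulation genes, 9 (45.0%) were above the rest in both captures and 5 below (median 0.31), a share above the rest near the 38.1% of all genes tested (17.2% below). Icos, a costimulatory receptor of helper cells, had medians of 6.88 in March and 7.70 in April high cells, against 2.25 and 5.80 in the rest; its means differed by 1.77 (SE 0.48, limma adjusted p = 0.262) and by 1.58 without the 8 cells. Il2ra, the alpha chain of the interleukin-2 receptor, was at 1 in 33.3% and 31.2% of high cells, against 10.9% and 17.2% of the rest. Batf, a transcription factor of activated T cells, averaged 2.79 and 3.23 in high cells and 2.46 and 1.32 in the rest.

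Follicular helper genes had a median of 0.02 over 18 genes, or -0.39 with linear values averaged. Of these genes, 6 (33.3%) were above the rest in both captures and 4 below, against 38.1% and 17.2% of all genes tested. Bcl6, the transcription factor that defines that lineage, was lower, with 0.25 and 0.69 in high cells and 0.66 and 0.99 in the rest. Icos, also a member of this list, and Btla were higher in both captures, with mean differences of 1.77 and 0.91. Maf averaged 5.18 and 6.71 in high cells and 4.37 and 6.20 in the rest. Among 9 genes of Th17 cells, helper cells that act against fungi, 5 (55.6%) were above the rest in both captures and 1 below. Of all genes tested, 38.1% were above and 17.2% below. The list median was 0.08 in March and 0.88 in April. Ccr6, a chemokine receptor of Th17 cells, was at 1 in 14.8% and 34.4% of high cells, against 7.27% and 15.6% of the rest (1.04, SE 0.34, limma adjusted p = 0.333). Rora, a nuclear receptor of that lineage, differed by 0.77.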
